A study of Mus musculus with 4 samples.

Results

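The genes described here are 10 genes of the extracellular matrix, of the enzymes that cut it and of the integrins that bind it, namely Fn1, Vcan, Thbs1, Spp1, Timp2, Mmp9, Plau, Itgb1, Itga4 and Itgam. They were taken by symbol from the 32285 genes listed in the deposited matrices, and all 10 were present. Their levels were read in single-cell RNA sequencing of DLA tumors, which grow from Dalton's lymphoma ascites cells placed in the peritoneal cavity of Swiss albino mice. Control 1 and Control 2 came from tumor-bearing mice that the labels call untreated, although the study's supplement speaks of vehicle controls, and Treated 1 and Treated 2 came from mice given the HSP90 inhibitor SP11 orally at 30 mg/kg for 17 days. The ages and sexes of the mice are not given in the sources used here. Each group therefore had 2 libraries, and p-values measure the spread between these libraries only.

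A barcode counted as a cell when 200 genes or more were detected and mitochondrial genes supplied no more than 10% of its UMIs (unique molecular identifiers, each 1 captured RNA molecule). This left 916 and 566 control cells and 1831 and 1091 treated cells. Each cell was assigned by its UMIs of marker genes, none of them among the 10 genes. The assignment needed at least 3 UMIs of a list and at least 2 times as many as of any other list. It found 3217 tumour cells, 489 myeloid cells, 70 neutrophils and 385 lymphoid cells among 4404. Set apart as erythroid were 81 cells with over 50% of their UMIs on haemoglobin genes, and 162 cells stayed ungated. The myeloid cells were 211 Fn1-type, 102 Ccl2-type, 20 dendritic and 156 unsplit cells. Fn1-type cells were those led by the monocyte genes Ly6c2, Plac8, F13a1, Ccr2, Chil3 and Ms4a4c, and Ccl2-type cells those led by Ccl2, Ccl7, Ccl8, Ccl12 and Saa3. Ly6c2 had no UMI in the Fn1-type cells of any library, and Chil3 none in those of Control 1, so the other genes made this gate. The 6 genes summed to 1656 to 2502 CPM in Fn1-type cells, and to 826 and 782 CPM in the lymphoid cells of the treated libraries. Dendritic cells were those led by Flt3, Cd209a, Clec9a, Xcr1, Siglech, Zbtb46 and Ccr7. Myeloid cells with no UMI of the Fn1-type, Ccl2-type and dendritic lists, or with a tie between the leading lists, are called unsplit. Values for all myeloid cells include the dendritic and unsplit cells. The 2 control libraries held few cells outside the tumour, with 14 and 9 Fn1-type cells, 19 and 11 Ccl2-type cells, 4 and 2 neutrophils, and 8 and 1 lymphoid cells. For neutrophils and lymphoid cells the levels below are therefore those of the treated libraries.

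The labels name the tumor a lymphoma, but the cells called tumour cells here were gated by the keratin genes Krt7, Krt8, Krt18 and Krt19, which mark epithelial cells. Summed over these 4 genes the tumour cells reached 3933 to 7238 CPM (UMIs of a gene per 1000000 UMIs of the summed cells) in the 4 libraries, whereas the 6 B cell markers summed to 1.76 to 45.3 CPM and the 9 T and NK cell markers to 0.211 to 10.0 CPM. The neutrophils of the treated libraries also held keratin UMIs, 1929 and 2896 CPM, against 498 and 404 CPM in lymphoid cells. Between 60 and 359 cell barcodes were shared by any 2 libraries, and the kept cells with a shared barcode had the same class in 36.7% to 87.0% of cases, against 39.2% to 87.5% given by the class shares of those same 2 libraries.

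Fibronectin, versican, thrombospondin and osteopontin are secreted glycoproteins or proteoglycans of the matrix on which cells adhere and migrate. Matrix metalloproteinases and plasminogen activators cut this matrix, tissue inhibitors of metalloproteinases restrain them, and integrins are the paired alpha and beta receptors by which cells hold on to it. Monocytes, macrophages and neutrophils in tumors are known sources of several of these products.

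In the GRCm38 (mm10) annotation the 10 genes are protein-coding and lie on separate stretches of the genome. Fn1 occupies chr1:71585520-71653200 and Spp1 chr5:104435118-104441050. Vcan lies at chr13:89655312-89742509, Thbs1 at chr2:118111876-118127133 and Timp2 at chr11:118301069-118355740. The protease genes Mmp9 and Plau lie at chr2:164940780-164955850 and chr14:20836660-20843385. The integrin genes Itgb1, Itga4 and Itgam lie at chr8:128685654-128733200, chr2:79255426-79333123 and chr7:128062640-128118491.

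Promoters were matched by symbol in the RefSeq table for GRCm38.p6, which held an entry for 6 of the 10 genes, namely Vcan, Spp1, Timp2, Itgb1, Itga4 and Itgam. The 250 bases before the start of 4 of them are shown because these genes represent the patterns described below: Vcan and Itgam were mainly myeloid, Spp1 was shared by myeloid and tumour cells, and Itgb1 was found in every class. Capitals mark the searched words, on either strand. They were GAGGAA, which holds the GGAA core of sites for Ets-family factors such as PU.1, TGANTCA, the AP-1 site, and TATAAA, the TATA box.
Vcan (chr13:89742513-89742762, minus strand): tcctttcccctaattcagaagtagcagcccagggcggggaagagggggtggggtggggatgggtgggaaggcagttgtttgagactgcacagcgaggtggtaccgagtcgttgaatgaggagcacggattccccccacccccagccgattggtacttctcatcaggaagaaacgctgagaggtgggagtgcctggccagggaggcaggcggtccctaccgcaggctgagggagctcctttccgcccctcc
Itgam (chr7:128062390-128062639, plus strand): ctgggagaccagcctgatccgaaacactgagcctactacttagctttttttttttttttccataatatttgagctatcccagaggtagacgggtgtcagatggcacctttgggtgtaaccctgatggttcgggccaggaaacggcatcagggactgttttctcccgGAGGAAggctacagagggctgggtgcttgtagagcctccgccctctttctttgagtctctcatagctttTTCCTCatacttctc
Spp1 (chr5:104434861-104435110, plus strand): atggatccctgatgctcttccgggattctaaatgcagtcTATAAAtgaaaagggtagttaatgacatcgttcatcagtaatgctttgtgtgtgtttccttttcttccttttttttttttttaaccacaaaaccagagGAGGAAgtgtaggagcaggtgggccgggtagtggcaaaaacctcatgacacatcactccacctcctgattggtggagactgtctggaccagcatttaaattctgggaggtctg
Itgb1 (chr8:128685404-128685653, plus strand): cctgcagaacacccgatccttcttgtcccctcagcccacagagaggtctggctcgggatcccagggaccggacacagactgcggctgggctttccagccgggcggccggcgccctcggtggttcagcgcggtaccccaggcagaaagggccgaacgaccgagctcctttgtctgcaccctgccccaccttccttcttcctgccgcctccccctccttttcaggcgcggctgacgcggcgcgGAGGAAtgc
GAGGAA was found 84 and 15 bases before the start of Itgam, the nearer of these on the reverse strand, 113 bases before that of Spp1 and 9 bases before that of Itgb1. TATAAA was found 211 bases before the start of Spp1. None of the 3 words was in the Vcan, Timp2 or Itga4 windows. Of 32851 promoter windows of this length, 23.3% held GAGGAA, 6.75% held TGANTCA and 12.4% held TATAAA. A match describes these letters and says nothing of binding.

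Fn1 and Vcan were myeloid genes in these tumors and their level in the tumor as a whole was higher after SP11. Over all kept cells Fn1 was at 6.98 and 8.77 CPM in the control libraries and at 91.0 and 87.5 CPM in the treated ones. The groups did not overlap, and the treated mean was 11.3 times the control mean. Vcan, which encodes the proteoglycan versican, was at 0.411 and 0.940 CPM in controls and 8.31 and 7.06 CPM after treatment. Tested over all 12149 genes that passed the filter on low counts, 5 of the 10 genes were higher after SP11, against a background of 10.7% of genes called, 9.11% higher and 1.63% lower. Of these, Vcan had 4 and 9 UMIs and Itga4 7 and 9 UMIs in the control libraries. Both passed the filter through the treated libraries, so they were in effect open only to a call of higher. Fn1 rose by 3.35 on the log2 scale (standard error (SE) 0.16, adjusted p = 3.30e-11) and Vcan by 3.35 (SE 0.37, adjusted p = 2.59e-06). Itga4 rose by 3.74 (SE 0.34, adjusted p = 2.35e-07), Itgam by 2.40 (SE 0.27, adjusted p = 3.06e-06) and Mmp9 by 1.64 (SE 0.32, adjusted p = 0.00149). Thbs1, Spp1, Timp2, Plau and Itgb1 did not pass, with log2 differences of 1.59, 0.10, -0.12, -0.33 and 0.03. The makeup of the libraries moved with this result: tumour cells were 93.1% and 93.8% of kept cells in controls and 68.7% and 52.8% after treatment, while myeloid cells were 4.04% and 4.06% and then 14.8% and 14.5%. Levels over all cells thus combine how many cells of a class there were with what each held, and the classes were read separately.

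**Figure D1:**
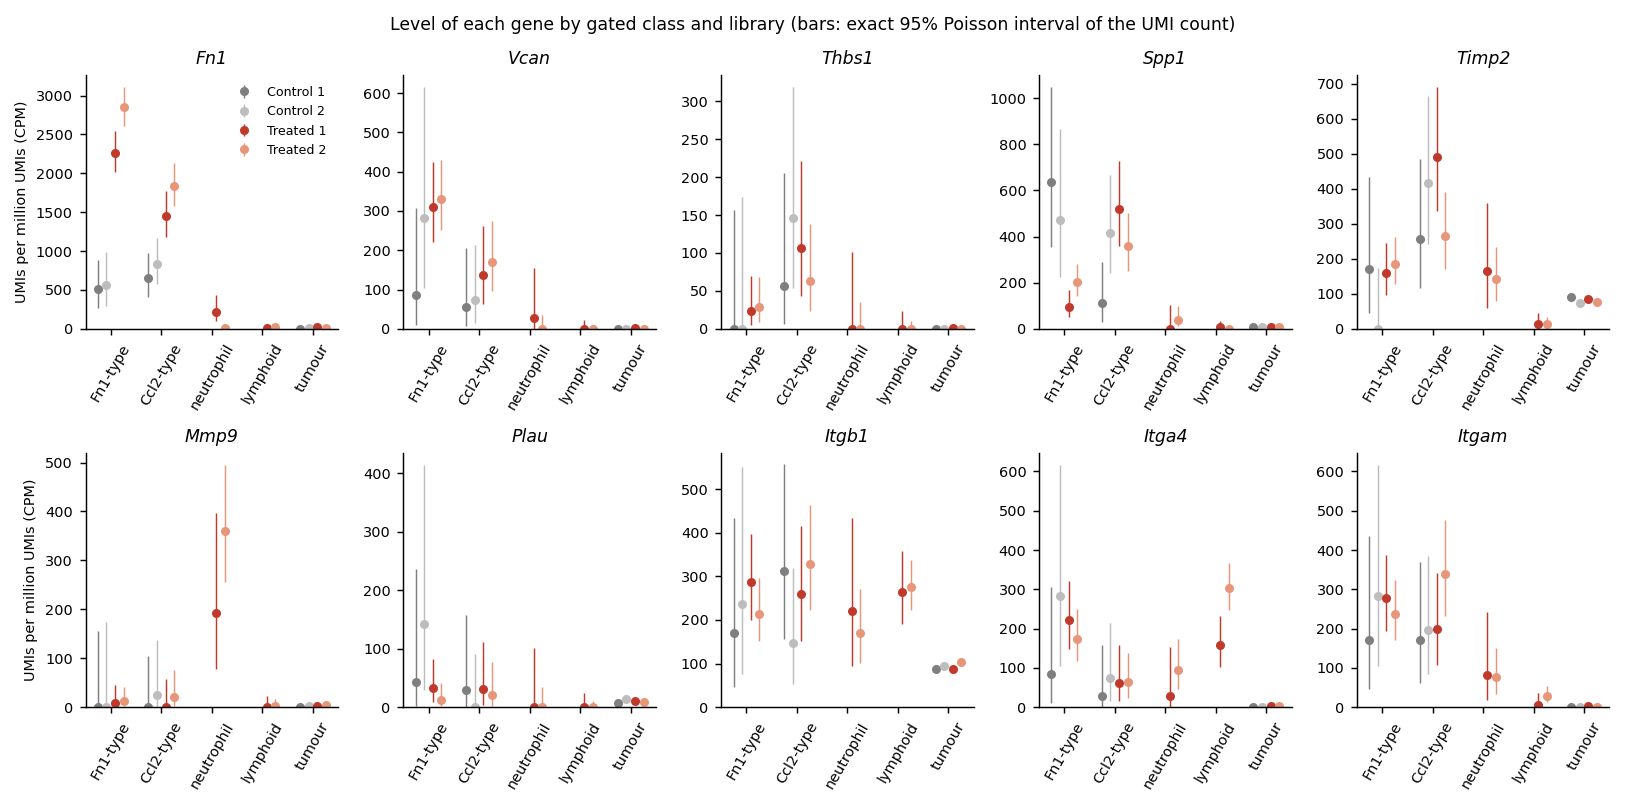
Each panel plots 1 gene, with its level in CPM (linear axis, scales differ between panels) for the gated classes, and 1 point per library with the exact 95% Poisson interval of its UMI count. Sums of fewer than 10000 UMIs, which are the control neutrophils and lymphoid cells, are left out. In the treated libraries, and among the classes drawn, Fn1 and Vcan stand highest in Fn1-type cells, Spp1, Timp2 and Thbs1 in Ccl2-type cells, Mmp9 in neutrophils, and Itga4 in lymphoid and Fn1-type cells.

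Fibronectin mRNA (Fn1) had the most UMIs of the 10 genes over all myeloid cells of each library. In Fn1-type cells it was at 509 and 567 CPM in controls and 2268 and 2852 CPM after SP11. Ccl2-type cells held 652 and 832 CPM in controls and 1455 and 1838 CPM after SP11, so that the treated libraries were above the control libraries in both classes. In the unsplit myeloid cells of the treated libraries, 113 and 37 cells, Fn1 was higher still at 2861 and 5267 CPM, so the monocyte genes that define the Fn1-type did not gather the cells richest in Fn1. The unsplit cells of controls, 4 and 2 cells, held 173 and 0 CPM from 1 and 0 UMIs. Taken over all myeloid cells, which numbered 37 and 23 in controls and 271 and 158 after SP11, Fn1 was at 557 and 726 CPM and then at 2277 and 2702 CPM. The treated mean was 3.88 times the control mean. The makeup of the myeloid cells moved with this value, since unsplit cells were 4 of 37 and 2 of 23 in controls and 113 of 271 and 37 of 158 after SP11, and its part in the result was not tested.

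The difference in Fn1 was tested in 3 ways within the myeloid cells. In Ccl2-type cells, the myeloid class with at least 10 cells in every library, edgeR called 0 of the 5 genes with enough counts, against a background of 1.06% of 756 genes. Fn1 was the 1 of the 5 with an unadjusted p under 0.05, as had 92 of the 756 genes. DESeq2 called Fn1, with 12 of the 756 genes called. Its log2 difference was 1.28 (SE 0.29, adjusted p = 0.104), and over the alternatives within this class the adjusted p ran from 0.00832 without Control 2 to 0.899 when Fn1 itself was used to split the myeloid cells. In all myeloid cells, a comparison added after the data were seen, Fn1 rose by 1.89 (SE 0.26, adjusted p = 1.31e-06), 1 of the 7 genes tested, with 7.66% of 2845 genes called and 3.62% called higher. In Fn1-type cells with at least 5 cells per library, also added, it rose by 2.45 (SE 0.28, adjusted p = 0.000107). Fn1 passed the test in all myeloid cells under each of the 12 alternatives run, with log2 differences of 1.65 to 2.24. A myeloid cell of a control library held a median of 1585 or 2658 UMIs and one of a treated library 1041 or 1859.

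**Figure D2:**
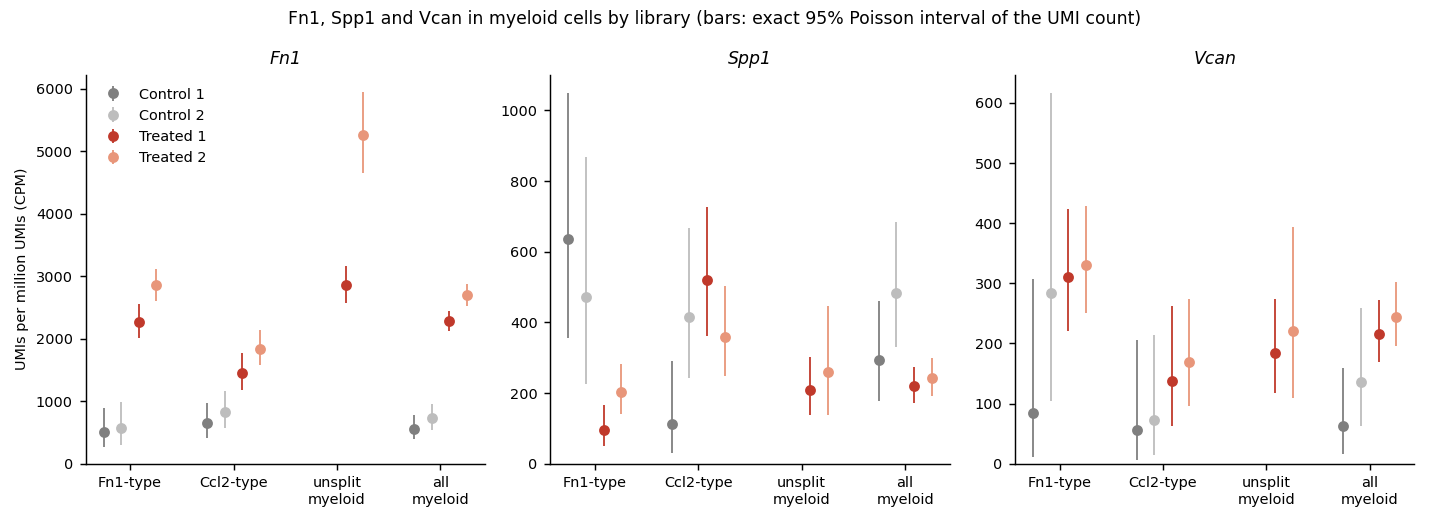
Levels of Fn1, Spp1 and Vcan in CPM (linear axes) are plotted for the myeloid classes, 1 point per library with its exact 95% Poisson interval, and unsplit control sums under 10000 UMIs are left out. In all myeloid cells Fn1 stands at 557 and 726 in controls and 2277 and 2702 after SP11, while the Spp1 points of Fn1-type cells stand higher in controls than after SP11.

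In Fn1-type cells the share with an Fn1 UMI followed the level. It was 35.7% and 33.3% of Fn1-type cells in controls and 73.1% (95% exact Clopper-Pearson interval 63.8% to 81.2%) and 77.5% (66.8% to 86.1%) after SP11. When each cell was thinned to 500 UMIs the shares were 14.3% and 33.3% in controls and 55.6% and 62.5% after SP11. With 2 libraries against 2, a two-sided exact permutation test cannot go below p = 0.33, which is the value it gave in Fn1-type cells. In Ccl2-type cells the mean share was 58.1% in controls and 78.8% after SP11. After thinning it was 30.6% (standard deviation 21.0) and 50.6% (standard deviation 8.0), and this permutation test gave p = 0.67. Lymphoid cells, which should lack Fn1, had a UMI in 1.27% and 2.74% of cells of the treated libraries at a median of 821 and 1233 UMIs per cell, while the Fn1-type cells had medians of 1070 and 2076. Other classes that should hold little Fn1 had higher shares there, 13.9% of erythroid cells in each library at medians of 1209.5 and 2590.5 UMIs, and 28.6% and 2% of neutrophils at 965 and 733 UMIs. Intervals and limits cover counting error only. Within the classes Fn1 was uneven: the tenth of the treated Fn1-type cells richest in Fn1 (11 and 8 cells) held 39.3% and 34.0% of its UMIs, and single cells reached 17 and 32 UMIs.

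In tumour cells Fn1 was rare and also higher after SP11. It was at 3.21 and 3.80 CPM in controls and 21.0 and 10.6 CPM after treatment, and the groups did not overlap. The tumour fit called 2 of the 7 genes tested, both higher, with 2.27% of 11521 genes called and 1.69% called higher and 0.582% lower. Fn1 rose by 2.06 (SE 0.30, adjusted p = 0.000447) and kept its call under the 13 alternatives run, at 1.41 to 2.51. Itga4, the integrin alpha 4 subunit, had 0 UMIs in the 853 and 531 control tumour cells and 25 and 24 UMIs in the treated libraries (adjusted p = 0.000553), which is at least 13.1-fold higher when 3 counts over the control group are taken as the limit. Itga4 passed the filter on low counts only through the treated libraries, so it could only be called higher, and its direction is no result. Vcan was too rare to be tested in tumour cells, with 0 UMIs in both control libraries and 20 and 6 after treatment. Markers of other cell types moved with these values. Lyz2, a lysozyme gene of myeloid cells, was at 4.14 and 3.06 CPM in control tumour cells and at 44.7 and 19.3 CPM after SP11. The summed 10 myeloid markers went from 24.6 and 19.7 CPM to 136 and 67.0 CPM, with Ms4a7 at 0 in both controls, and the 6 B cell markers from 1.76 and 2.53 CPM to 45.3 and 25.2 CPM, with Cd79b and Pax5 at 0 in both controls. Per 100 Lyz2 UMIs the tumour cells held 77.5 and 124 Fn1 UMIs in controls and 47.0 and 54.8 after SP11, and the myeloid cells 18.1 and 32.2 and then 33.7 and 37.7. For Itga4 these ratios in treated libraries were 4.65 and 10.4 in tumour cells and 2.04 and 2.23 in myeloid cells. Per 100 UMIs of Cd79a, 1 of the 6 B cell markers, Itga4 had 8.09 and 17.4 UMIs in treated tumour cells and 2.69 and 6.91 in treated lymphoid cells. When the keratin list had to lead by 10 times, Fn1 rose by 1.41 (SE 0.26, adjusted p = 0.00184) and Itga4 had too few counts to be tested. The part of RNA from other cells in these 2 results was not tested.

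The effect of SP11 on Fn1 was not shown to differ between Ccl2-type and tumour cells. In the test of that difference the log2 effect was 0.64 smaller in Ccl2-type cells (-0.64, SE 0.38, adjusted p = 1). edgeR called 0 of the 10 genes, with 0.146% of 10956 genes called (0.0274% higher and 0.119% lower). In edgeR 1 of the 10 genes (Itga4) had an unadjusted p under 0.05, as did 289 of the 10956. DESeq2 called 0, with 2 of the 10 genes at an unadjusted p under 0.05, and 189 of the 10956.

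**Figure D3:**
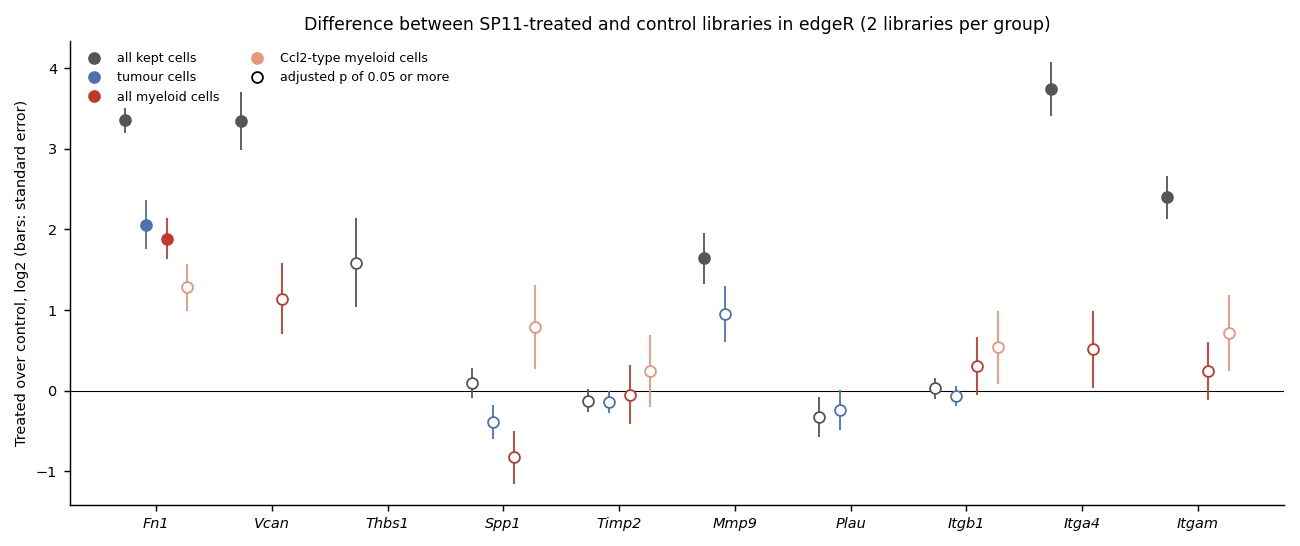
Log2 differences between treated and control libraries (2 per group) from edgeR are plotted for each gene, with bars for the standard error and filled points for an adjusted p under 0.05. Itga4 in tumour cells is left out because its control libraries are at 0, and genes too rare to be tested have no point. Fn1 is above 0 in all 4 comparisons, from 1.28 in Ccl2-type cells to 3.35 over all kept cells, whereas Timp2, Plau and Itgb1 lie between -0.33 and 0.54 and did not pass.

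Versican mRNA (Vcan) was highest in Fn1-type cells of the treated libraries, with unsplit myeloid cells at 185 and 220 CPM and Ccl2-type cells below them. Fn1-type cells held 84.9 and 283 CPM in controls and 310 and 331 CPM after SP11, and Ccl2-type cells 56.7 and 73.4 CPM and then 138 and 169 CPM. These control values rest on 2 and 6 UMIs and on 2 and 3 UMIs. In all myeloid cells the log2 difference of 1.14 (SE 0.44) did not pass (adjusted p = 0.0938). Vcan was not found in lymphoid cells, with 0 UMIs in the 157 and 219 cells of the treated libraries, so that treated Fn1-type cells were at least 54.0-fold higher against the limit of 3 counts over the group. Among treated libraries the ranges of Fn1-type and Ccl2-type cells lay apart for Fn1, Vcan and Itga4, which were higher in Fn1-type cells. They also lay apart for Thbs1, Spp1 and Timp2, which were higher in Ccl2-type cells, and overlapped for the other genes. How often such ranges lie apart over all genes was not counted. In both controls Fn1 was lower in Fn1-type than in Ccl2-type cells.

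Osteopontin (Spp1), a secreted ligand of integrins and CD44, was lower after SP11 in Fn1-type cells and overlapped between groups in Ccl2-type cells. Fn1-type cells held 637 and 472 CPM in controls, from 15 and 10 UMIs in 3 and 2 cells. After SP11 they held 95.5 and 203 CPM, and these groups did not overlap. The mean share of Fn1-type cells with a Spp1 UMI was 21.8% in controls and 15.7% after SP11. Ccl2-type cells held 113 and 416 CPM and then 521 and 359 CPM, with overlapping groups. None of these differences passed the test: the log2 difference was 0.79 (SE 0.52, adjusted p = 0.581) in Ccl2-type cells, -0.83 (SE 0.33, adjusted p = 0.110) in all myeloid cells and -1.64 (SE 0.47, adjusted p = 0.0645) in Fn1-type cells. Tumour cells held Spp1 at 6.63 and 9.60 CPM in controls and 6.14 and 7.32 CPM after SP11. Tumour cells, which supplied most of the RNA, held 76.2% and 73.4% of the Spp1 UMIs of the control libraries and 47.1% and 49.2% of those of the treated libraries. In treated Fn1-type cells 10 and 13 cells had UMIs of both Fn1 and Spp1, close to the 8.05 and 13.2 cells that the 2 shares would give if they were independent.

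Thrombospondin 1 (Thbs1), an adhesive glycoprotein that also activates TGF-beta, had the fewest UMIs of the 4 matrix genes in each library. Ccl2-type cells held 56.7 and 147 CPM in controls and 107 and 63.4 CPM after SP11, with 2 to 7 UMIs per library. Fn1-type cells had 0 UMIs in both controls and 23.9 and 29.0 CPM after SP11, from 8 UMIs over the treated libraries. The control sums, of 23554 and 21179 UMIs, were too small to show Thbs1 at these levels. In neutrophils and lymphoid cells of the treated libraries no UMI of Thbs1 was counted. The platelet gene Pf4, named here because platelets are rich in thrombospondin, supplied all UMIs of the 4 platelet markers in Ccl2-type cells, 391 to 879 CPM, with Ppbp, Itga2b and Gp9 at 0 in the 4 libraries.

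The protease genes stood in different cells. Mmp9, the gelatinase stored in neutrophil granules, was at 193 and 361 CPM in the neutrophils of the treated libraries. Ccl2-type cells had 0 and 21.1 CPM, Fn1-type cells 7.96 and 11.6 CPM and tumour cells 3.16 and 3.70 CPM, so neutrophils lay above the other 4 main classes. Cells gated as erythroid came nearest, at 86.8 and 99.3 CPM from 4 and 10 UMIs in 36 cells each. Mmp9 UMIs were found in 28.6% and 46.0% of these neutrophils, and in 0.926% and 1.25% of Fn1-type cells. Tumour cells still held 61.3% and 42.7% of its UMIs in the treated libraries, and neutrophils 11.3% and 36.9%. In tumour cells its level was 1.14 and 2.11 CPM in controls, and the log2 difference of 0.95 (SE 0.34) did not pass (adjusted p = 0.190). S100a9, a neutrophil gene, was at 2.80 and 5.80 CPM in control tumour cells and at 39.1 and 27.8 CPM in treated ones, and its part in the Mmp9 values was not tested. Over all kept cells, where Mmp9 rose, neutrophils were 0.437% and 0.353% of control cells and 0.765% and 4.58% of treated cells.

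Plau, which encodes the urokinase plasminogen activator, had 94.0% and 93.4% of its UMIs in tumour cells in the treated libraries, although its level there was below that of the myeloid types. Tumour cells were at 6.73 and 13.7 CPM in controls and at 10.4 and 8.33 CPM after SP11, and the groups overlapped. Ccl2-type cells held 30.6 and 21.1 CPM and Fn1-type cells 31.8 and 11.6 CPM after SP11. These values rest on few counts, since all myeloid cells had 3 Plau UMIs in each control library and 7 and 5 in the treated ones. Neutrophils and lymphoid cells of the treated libraries had none.

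Timp2, the inhibitor that binds MMP2 and other metalloproteinases, was found in tumour and myeloid cells alike. Tumour cells held 89.8 and 73.5 CPM in controls and 83.9 and 77.4 CPM after SP11, a log2 difference of -0.14 (SE 0.14, adjusted p = 0.688). Ccl2-type cells held more, 255 and 416 CPM and then 490 and 264 CPM. Fn1-type cells held 170 and 0 CPM in controls and 159 and 186 CPM after treatment, and neutrophils 165 and 142 CPM after treatment. Lymphoid cells had the least, 12.6 and 14.5 CPM. Tumour cells held 87.3% and 89.3% of the Timp2 UMIs of the treated libraries, the opposite of Fn1, of which myeloid cells held 64.2% and 81.4%. In controls the Fn1 UMIs were more evenly shared, with 52.9% and 57.1% in myeloid cells and 45.6% and 42.9% in tumour cells.

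**Figure D4:**
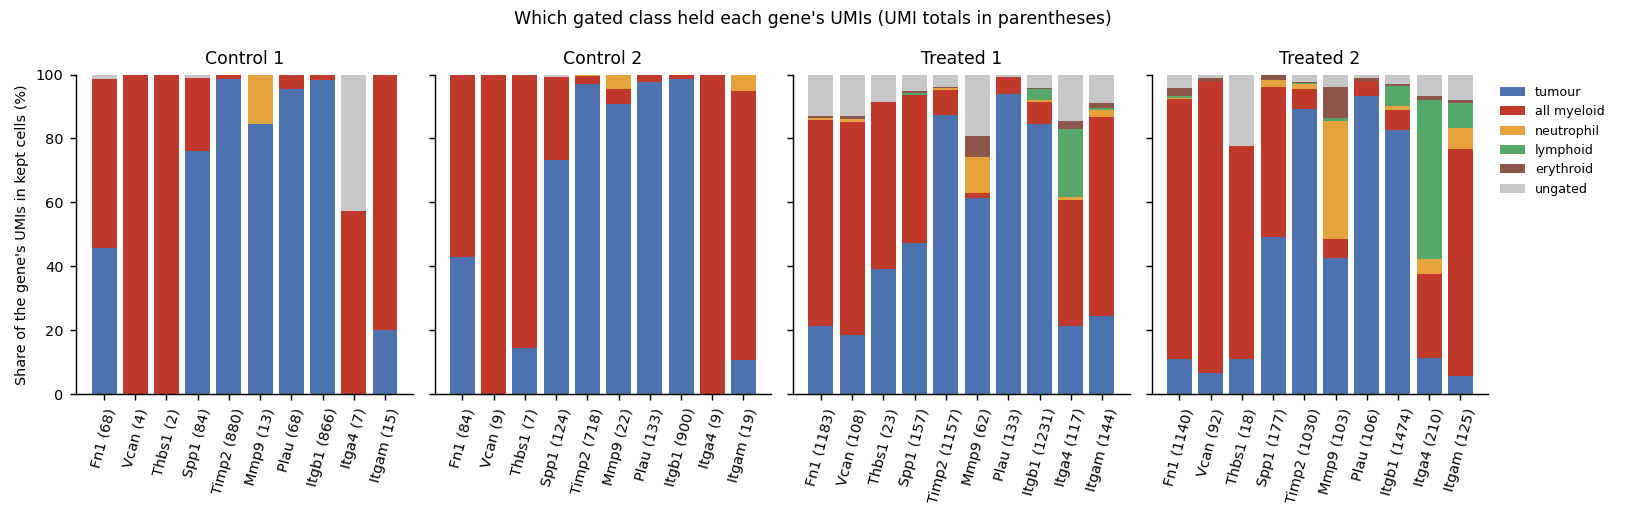
Stacked bars give the share in percent of each gene's UMIs that each gated class held in a library, with the UMI totals of the kept cells in parentheses. Tumour cells hold most of Timp2, Plau and Itgb1 in each library, myeloid cells most of Fn1, Vcan, Thbs1 and Itgam in the treated libraries, and lymphoid cells 21.4% and 49.5% of Itga4 after SP11.

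Of the integrins, Itgb1, the common beta 1 chain, was present in every class. Tumour cells held 88.1 and 93.5 CPM in controls and 86.5 and 103 CPM after SP11, and the groups overlapped. In the treated libraries Ccl2-type cells held 260 and 327 CPM, lymphoid cells 265 and 276 CPM, Fn1-type cells 287 and 215 CPM and neutrophils 220 and 171 CPM. Neighbours in this order overlapped except that tumour cells lay below neutrophils. Tumour cells carried far more UMIs per cell, a median of 8794 and 19661.5 in the treated libraries, and 51.5% and 84.5% of them had an Itgb1 UMI, against 27.8% and 30.0% of Fn1-type cells. After thinning to 500 UMIs these shares were 4.46% and 6.08% of tumour cells and 13% and 13.8% of Fn1-type cells, so the order of the unthinned shares went against the CPM.

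Itga4, which pairs with beta 1 to bind fibronectin and VCAM-1, was highest in lymphoid cells at 158 and 302 CPM and in Fn1-type cells at 223 and 174 CPM, which overlapped. Within the lymphoid cells of the treated libraries B cells held 157 and 259 CPM, and T and NK cells, 10 and 72 cells, held 171 and 458 CPM from 1 and 34 UMIs. Ccl2-type cells held 61.3 and 63.4 CPM, below both Fn1-type values, and neutrophils 27.6 and 94.9 CPM. In Fn1-type cells of controls the values were 84.9 and 283 CPM, around the treated ones. Over all kept cells its rise came with lymphoid cells at 0.873% and 0.177% of control cells and 8.57% and 20.1% of treated cells.

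Itgam, the alpha M chain of the leukocyte receptor Mac-1, was a myeloid gene. Fn1-type cells held 170 and 283 CPM in controls and 279 and 238 CPM after SP11. Ccl2-type cells held 170 and 196 CPM and then 199 and 338 CPM. Neutrophils of the treated libraries, which are known to carry Mac-1, held 82.7 and 76.0 CPM, lymphoid cells 6.31 and 29.1 CPM and tumour cells 2.91 and 0.589 CPM. In all myeloid cells the log2 difference of 0.24 (SE 0.36) did not pass (adjusted p = 0.774).

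The classes were then compared in 1 fit over 15 class sums with the library as a term. Fn1-type cells of Control 2 (9 cells) and the neutrophils and lymphoid cells of both controls were too few to enter. The filter on low counts kept genes that reached it in the sums of any class. A gene near 0 in either class of a pair was thus in effect open to a call in a single direction. Among the calls below this applies at least to Vcan, Thbs1 and Itga4 against tumour cells, and to Vcan, Spp1 and Mmp9 against neutrophils. Between Fn1-type and Ccl2-type cells edgeR called 0 of 9 genes, with 0.617% of 3405 genes called. In edgeR 2 of the 9 (Thbs1 and Timp2) had an unadjusted p under 0.05, as did 339 of the 3405 genes. DESeq2 also called 0, with the same 2 genes at an unadjusted p under 0.05, and 242 of the 3405 genes. Timp2 was 1.09 lower on the log2 scale in Fn1-type cells (-1.09, SE 0.29, adjusted p = 0.0884) and Fn1 0.32 higher (SE 0.30, adjusted p = 0.794). The fit gives 1 difference over all libraries, whereas the CPM of Fn1 was lower in Fn1-type cells in both controls and higher in both treated libraries. The Timp2 difference turned to 0.18 when the 2 types were split by Fn1 and Vcan against Ccl2, Saa3 and Spp1, a split in which Fn1, Vcan and Spp1 values are fixed by the choice of cells.

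Against tumour cells, 8 of 9 genes were higher in Ccl2-type cells, where 29.8% of genes were called higher, 35% lower and 64.7% either way. Itgam was 7.76 higher on the log2 scale (SE 0.54, adjusted p = 2.15e-12), Fn1 7.0 (SE 0.31, adjusted p = 1.53e-16), Spp1 5.58 (SE 0.42, adjusted p = 1.08e-11), Timp2 2.04 (SE 0.23, adjusted p = 1.93e-08) and Itgb1 1.44 (SE 0.23, adjusted p = 7.91e-06). Vcan, Thbs1 and Itga4 were also higher, and Mmp9 did not pass (1.98, SE 1.14, adjusted p = 0.129), although DESeq2 called it (adjusted p = 0.0121). Ccl2-type cells of Treated 1 held 31 UMIs of the 7 stromal markers, which include Col1a1 and Dcn and are known from fibroblasts, a cell type that also makes Fn1 and Timp2. These markers were at 0 in Ccl2-type cells of the other libraries and in Fn1-type and unsplit cells of all 4, and their part in the Ccl2-type values of Treated 1 was not tested.

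Against neutrophils, 3 of 9 genes were higher in Fn1-type cells and 1 was lower, with 23% of genes called, 11.5% in each direction. Fn1 was 5.29 higher (SE 0.52, adjusted p = 5.32e-08), Vcan 5.55 (SE 1.12, adjusted p = 0.000784) and Spp1 3.05 (SE 0.90, adjusted p = 0.0148), and Mmp9 was lower (-4.75, SE 0.88, adjusted p = 0.000296). Itgam (1.84, SE 0.68, adjusted p = 0.0514) and Itga4 (1.63, SE 0.68, adjusted p = 0.0852) did not pass. Without Treated 2, which left 14 neutrophils, 3 of these 4 calls were lost, with adjusted p = 0.192 for Vcan, 0.0881 for Spp1 and 0.208 for Mmp9. The Spp1 call was also lost when 1 marker list had to lead by 4 times (adjusted p = 0.423) or cells needed 500 genes (adjusted p = 0.0525).

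Against lymphoid cells, 6 of 9 genes were higher in Fn1-type cells, where 30.2% of genes were called and 16.1% were called higher. They were Fn1 (6.78, SE 0.51, adjusted p = 8.57e-11), Spp1 (6.37, SE 1.08, adjusted p = 5.03e-05), Itgam (3.29, SE 0.66, adjusted p = 0.000338), Timp2 (3.28, SE 0.49, adjusted p = 9.42e-06), Vcan and Thbs1. The Spp1 value rests on 1 and 0 UMIs in the lymphoid cells of the treated libraries, where Vcan and Thbs1 had 0 UMIs. Spp1, Vcan and Thbs1 passed the filter on low counts through other classes, so they were in effect open only to a call of higher. Thbs1, with 8 UMIs in treated Fn1-type cells against 0 in lymphoid cells, was at least 4.5-fold higher, and its call (adjusted p = 0.0354) was lost without Treated 1 (adjusted p = 0.122) or Treated 2 (adjusted p = 0.404), without the filter on low counts (adjusted p = 0.126) and with 500 genes per cell (adjusted p = 0.0657). The integrins shared with lymphocytes did not pass, at -0.49 for Itga4 (SE 0.47, adjusted p = 0.466) and -0.50 for Itgb1 (SE 0.27, adjusted p = 0.165).

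A wider list of 87 genes of the same families, 28 of the matrix, 25 proteases, 11 protease inhibitors and 23 receptors, was read for context. Between Fn1-type and Ccl2-type cells 3 of 11 proteases and 1 of 4 inhibitors tested were lower in Fn1-type cells, and these were the calls made among the wider list, of which 7 matrix genes and 10 receptors could also be tested. Over all genes tested 0.617% were called and 0.529% were lower. The proteases were the lysosomal cathepsins Ctsl (-1.96, SE 0.25), Ctsd (-1.69, SE 0.22) and Ctsb (-0.89, SE 0.18), and the inhibitor was Slpi (-2.14, SE 0.50), which blocks neutrophil elastase. In the order matrix, proteases, inhibitors and receptors, the median log2 differences were -0.49, -0.58, -0.58 and -0.31, beside 0.01 over all genes tested.

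The genes called for SP11 were named after their values were seen. Over all genes tested 3.62% were called higher and 4.04% lower in all myeloid cells. In all myeloid cells 1 of 7 receptors tested rose, the hyaluronan and osteopontin receptor Cd44 (1.42, SE 0.33, adjusted p = 0.00431), and 1 of 5 matrix genes fell, the granule proteoglycan Srgn (-1.04, SE 0.24, adjusted p = 0.00431). Of 9 proteases Adam15 rose (1.93, SE 0.60) and Ctsl (-1.37, SE 0.26) and Prtn3 (-1.74, SE 0.53) fell, and of 4 inhibitors Cst3 rose (1.11, SE 0.23) and Slpi (-1.79, SE 0.43) and Cstb (-1.03, SE 0.27) fell. In tumour cells 4 of 13 matrix genes, 1 of 13 proteases and 1 of 16 receptors tested were higher, with 1.69% of all genes called higher. Srgn (2.44, SE 0.24), Tgfbi (2.11, SE 0.51), Ctss (1.71, SE 0.33) and Emilin2 (1.58, SE 0.41) led this group, with smaller differences for the basement membrane proteoglycan Hspg2 (0.73, SE 0.18) and the laminin receptor chain Itga3 (0.57, SE 0.14). Ctss is itself 1 of the 10 myeloid markers given above for these cells. Among the leading genes, Emilin2, Srgn and Tgfbi were higher in Ccl2-type than in tumour cells, by 8.18, 7.73 and 5.95 on the log2 scale. Ctss helped to gate both classes, so the direction of its class difference was fixed by the choice of cells and is no result. The SP11 effect was smaller in Ccl2-type than in tumour cells for Srgn (-2.98, SE 0.36, adjusted p = 5.15e-13). It was also smaller for Ctss (-1.62, SE 0.37, adjusted p = 0.0088), whose values in both classes are limited by the gates. The part of RNA from myeloid cells in the tumour cell values was not tested.

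Over the 15 class sums, the genes with the pattern most like each of the 10 were named by Pearson's r of log2(CPM + 1) among 10330 genes with at least 100 UMIs. The sums share libraries and differ in depth, so r is a description. Fn1 and Vcan were both most like Pid1 (r = 0.99 and 0.99), followed by Trf (0.97) and Fcgr1 (0.98), and Itgam was most like Sirpa (0.99) and Pira2 (0.98). Thbs1 was nearest to Pmp22 (0.97) and Trem2 (0.97), and Itga4 to Dock2 (0.98) and Plcg2 (0.98). Spp1 was nearest to C9orf72 (0.95) and Prtn3 (0.94), Timp2 to Ier3 and Cebpb (0.93 each), Plau to Gm49774 (0.94) and Spred1 (0.91), and Itgb1 to Cdk8 and Ifi35 (0.94 each). Mmp9 had the weakest neighbours, Mir22hg (0.87) and Grina (0.84).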

How the data were processed

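Single-cell RNA sequencing was carried out by the authors on the 10x Genomics platform for 2 control and 2 SP11-treated DLA tumor samples, with 1 matrix per sample. The deposited values are raw UMI counts per gene and cell, to which the authors applied no normalization. The counting was done with Cell Ranger 7.1.0, and the submitters' processing notes name mm10, whereas the paper's text names hg38. The tumors were digested with collagenase and red cells were lysed, so a protease and a cell loss step came before any count. The kept cells held 9739676 and 9574906 UMIs in controls and 12999822 and 13024964 in treated libraries.

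The 10 genes, the marker lists, the comparisons and the wider gene lists were chosen with earlier results of these data known. Cells were gated by marker UMIs as described, without the 10 genes, and UMIs were summed per class and library. The test was edgeR's quasi-likelihood F-test (version 4.0.16, under R 4.3.3) after TMM scaling and removal of low counts by filterByExpr. P-values were adjusted by Benjamini-Hochberg over every gene tested, with calls at 0.05. SP11 fits used the 4 sums of a class. Class comparisons used sums of at least 10 cells with the library as a term. Shares, with Clopper-Pearson intervals, used scipy 1.17.1. Thinning drew 500 UMIs per cell, and no kept cell had fewer. The 10 genes are always named, and genes of the wider lists are given by value where called between Fn1-type and Ccl2-type cells, up to 5 per list. Those named for SP11 fall outside this rule. DESeq2 1.42.0 and the other alternatives are given in the closing section. The fits were tested on simulated data with known changes. Scrublet marked 35, 13, 4 and 19 of the kept cells as doublets, and they stayed in.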

Additional observations from a re-analysis of the deposited data

How the results depend on the processing

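With 2 libraries per group and 9 to 40 cells in several myeloid sums, most of the 10 genes had few UMIs outside the tumour cells and neutrophils of controls could not be read. Over the members' alternatives other than leaving out a library, 505 kept direction and side of the threshold, 10 reversed, 11 passed only in the alternative and 4 only in the main analysis. The causes of the shifts below were not tested.

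The number of genes called for SP11 in tumour cells, 262, became 132 with DESeq2, 955 with the replicate number as a block and 173 without called doublets. Deviations of same-numbered control and treated tumour sums correlated at 0.23 over genes, and with 2 pairs the samples share only a number. The block changed no call among the 10 genes other than Thbs1 over all kept cells (1.59, adjusted p = 0.0285). In Ccl2-type cells 8 calls became 18 without the filter, 3 with the block, 13 with 500 genes per cell, 16 with a 4-fold lead, 14 when members split the types, and, in sets added after seeing the data, 218 in all myeloid cells and 39 in Fn1-type cells. Over all kept cells 1305 became 759 with DESeq2 and 2220 with the block. Between Fn1-type and Ccl2-type cells 21 became 34 with DESeq2, 37 without the filter, 38 with a 4-fold lead and 103 when members split the types. Ccl2-type against tumour cells gave 2204 calls and 3698 without the filter, and Fn1-type against neutrophils 783 and 280 with a 4-fold lead. In all myeloid cells 218 became 130 with DESeq2, 122 with the block, 45 with 500 genes, 29 with 6 marker UMIs and 95 with a 4-fold lead. Of the 10 genes, 7 were in at least 10% of Fn1-type cells of both treated libraries and 4 after thinning. How many of all genes reach this share was not counted, so these counts say nothing particular of the 10.

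Leaving out 1 library gave 230 to 411 calls in tumour cells (highest without Control 1), 9 to 37 in Ccl2-type cells, where leaving out either control or Treated 1 raised the count by over 1.5 times, 972 to 1524 over all cells, 95 to 133 in all myeloid cells, where each of the 4 libraries moved it, 12 to 25 between Fn1-type and Ccl2-type cells, 1455 to 2314 between Ccl2-type and tumour cells, 159 to 816 against neutrophils (482 without Treated 1) and 282 to 1038 against lymphoid cells, with the lowest values of these last 4 class comparisons without Treated 2. The difference between classes gave 0 to 18 calls, 16 with all libraries, 10 without Control 2, 1 without Treated 1 and 0 without Treated 2. Some calls among the 10 genes were gained this way: Fn1 in Ccl2-type cells without Control 2 or Treated 1, Thbs1 without Control 2 (2.72, adjusted p = 0.0345) and Plau without Control 1 (-0.73, adjusted p = 0.00838) over all kept cells, Vcan in all myeloid cells without Treated 1 (1.46, adjusted p = 0.0339), and Itga4 (adjusted p = 0.0382) and Itgam (adjusted p = 0.0343) against neutrophils without Control 2. Itgam against neutrophils also passed without the filter (adjusted p = 0.0465), with 6 marker UMIs (adjusted p = 0.0464) and when members split the types (adjusted p = 0.0446).

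Reversals concerned differences that did not pass in the main analysis. For SP11, Spp1 was -0.83 in all myeloid and -1.64 in Fn1-type cells against 0.79 in Ccl2-type cells, and Timp2 was -0.052 in all myeloid cells, 0.14 there without the filter and 0.017 with a 4-fold lead. Between Fn1-type and Ccl2-type cells Timp2 became 0.18 and Itgb1 0.42 when members split the types, and Mmp9 0.89 with a 4-fold lead. Against neutrophils Timp2 became -0.17 and Itga4 -0.065 with a 4-fold lead. With 1 library left out the ranges that crossed 0 were, in tumour cells, -0.30 to 0.031 (Timp2), -0.65 to 0.33 (Plau) and -0.14 to 0.0050 (Itgb1), and in Ccl2-type cells -0.15 to 0.68 (Timp2). Over all kept cells they were -0.15 to 0.40 (Spp1), -0.27 to 0.030 (Timp2), -0.73 to 0.23 (Plau) and -0.038 to 0.10 (Itgb1), and in all myeloid cells -0.28 to 0.45 (Timp2). The others were -1.49 to 0.050 for Spp1 between the myeloid types, -0.87 to 0.49 for Itga4 against lymphoid cells and -1.40 to 0.0088 for the difference of the Fn1 effect between classes.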

Other observations

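Barcodes with fewer than 200 detected genes, left out above, were rare in controls (12 and 1) and more frequent after SP11 (433 and 380). They were dominated by haemoglobin: 6097 of 13433 and 663 of 1241 UMIs in controls, and 189910 of 392815 and 298391 of 582278 UMIs in treated libraries, were of Hbb-bs, a beta-globin gene. Fn1 had 0 UMIs in the control barcodes and 8 and 5 in the treated ones, which is 20.4 CPM (exact Poisson interval 8.79 to 40.1) and 8.59 CPM. Vcan, Thbs1 and Spp1 had 0 UMIs in all 4 libraries, and Lyz2 had 14 and 26 UMIs in the treated ones. The control barcodes held too few UMIs to show Fn1 at these levels.

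Cells that no marker list claimed, 96 and 52 in the treated libraries, held Fn1 at 397 and 193 CPM.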
